A study of Mus musculus with 30 samples.

Results

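The interleukin-1 (IL-1) family receptors described here are 7 mouse genes, *Il1r1*, *Il1r2*, *Il1rl1*, *Il1rl2*, *Il1rap*, *Il1rn* and *Il18r1*. They were chosen by symbol and are 7 of the 32316 gene symbols to which the transcript counts of the series were summed. *Il1rn* is counted with them as the soluble antagonist of the receptor that *Il1r1* encodes.

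IL-1 family cytokines act through paired receptor chains: a chain that binds the ligand recruits an accessory chain, and the joined intracellular domains signal through MyD88 to NF-κB. *Il1r1* encodes the signalling receptor for IL-1α and IL-1β, *Il1rl2* that for the IL-36 cytokines and *Il1rl1* that for IL-33, and these share the accessory chain encoded by *Il1rap*, whereas *Il18r1* encodes the binding chain for IL-18. The decoy receptor of *Il1r2* and the antagonist of *Il1rn* restrain IL-1, and in the gut these cytokines act on stromal cells during barrier injury, infection and repair.

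Stromal cells of the lamina propria of the small intestine (SI) and the colon of untreated C57BL/6Nrj mice, aged 8 to 10 weeks, were sorted into 10 populations. Each population had 3 bulk RNA-seq libraries, 30 in all and 15 from each tissue, and the labels speak of 3 individual mice. Dead cells and cells bearing lineage markers, CD31, BP3, EpCAM or high NCAM were sorted away first. No genotype or agent was compared: the groups differ in tissue and gate.

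Among ESAM-1+ PDGFRα- cells, pericytes of both tissues were PDPN- and small intestinal smooth muscle cells (SMC) were PDPN+, while all fibroblasts (FB) were sorted as ESAM-1-. The small intestinal gates were PDGFRα hi CD34- for PDGFRα hi FB, PDGFRα int CD34- for Fgfr2+ FB and PDGFRα int CD34+ for CD34+ FB, which the labels describe as a mixture of Igfbp5+ FB and CD81+ FB. In the colon, PDGFRα hi FB were PDPN+ CD34-, Fgfr2+ FB were PDPN hi CD34+ CD90-, CD90+ FB were PDPN hi CD34+ CD90+, and CD81+ FB were PDPN int CD34+ CD90-. The gates of PDGFRα hi FB and of Fgfr2+ FB therefore differ between tissues, and in the tissue comparisons gate and tissue cannot be told apart.

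The depth of a library is its total estimated count, which lay between 2245052 and 19096945, with a median of 9601683. In the small intestine the 3 totals were 6185421, 7860140 and 9075187 for pericytes, 8866828, 9512574 and 13507159 for SMC, and 9432531, 11729938 and 11930055 for CD34+ FB. PDGFRα hi FB of the small intestine had 7327358, 8041204 and 18148945, and Fgfr2+ FB had 2245052, 10286761 and 15098412, the lowest being replicate 3. In the colon the totals were 9225411, 9314458 and 13866610 for pericytes, 13102446, 16181861 and 18710840 for CD81+ FB, and 14456220, 15840424 and 19096945 for CD90+ FB. Colonic Fgfr2+ FB had 8740291, 9690792 and 9785938, and colonic PDGFRα hi FB had 6865683, 6986681 and 7248567.

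Transcripts of the sorting proteins followed the gates with exceptions. *Esam* averaged 106 to 139 CPM (counts scaled to library size by trimmed mean of M values over all 30 libraries) in the 3 ESAM-1+ populations and 0.0488 to 0.718 CPM in the 7 FB populations. For *Pdgfra* the mean was 6363 CPM in PDGFRα hi FB of the small intestine, 2468 CPM in those of the colon, and at most 929 CPM in any other population. *Thy1*, the gene of CD90, averaged 196 CPM in colonic CD90+ FB, 26.8 CPM in Fgfr2+ FB of that tissue, and 214 CPM in small intestinal pericytes, and *Rgs5*, a pericyte gene, reached 3779 CPM in small intestinal CD34+ FB.

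Small intestinal pericyte replicate 1 carried markers of other cells, and other libraries with such markers are named below. It correlated with the other 2 libraries of its population at a mean r of 0.737 across genes, the lowest of the 30 libraries but close to their 0.763 and 0.778, and its B cell and plasma cell list summed to 203 CPM against 9.24 and 15.9 CPM in replicates 2 and 3. The most abundant of these 4 genes was *Cd79a*, with 191, 0.851 and 1.58 CPM, and none of the 4 was at 0 in all 3 libraries of the population. Its macrophage, dendritic cell and neutrophil list summed to 219 CPM against 74.8 and 60.2 CPM, mostly from *Cd68*, while *Adgre1*, *Itgax*, *S100a8* and *S100a9* of its 8 genes were at 0.

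**Figure D1:**
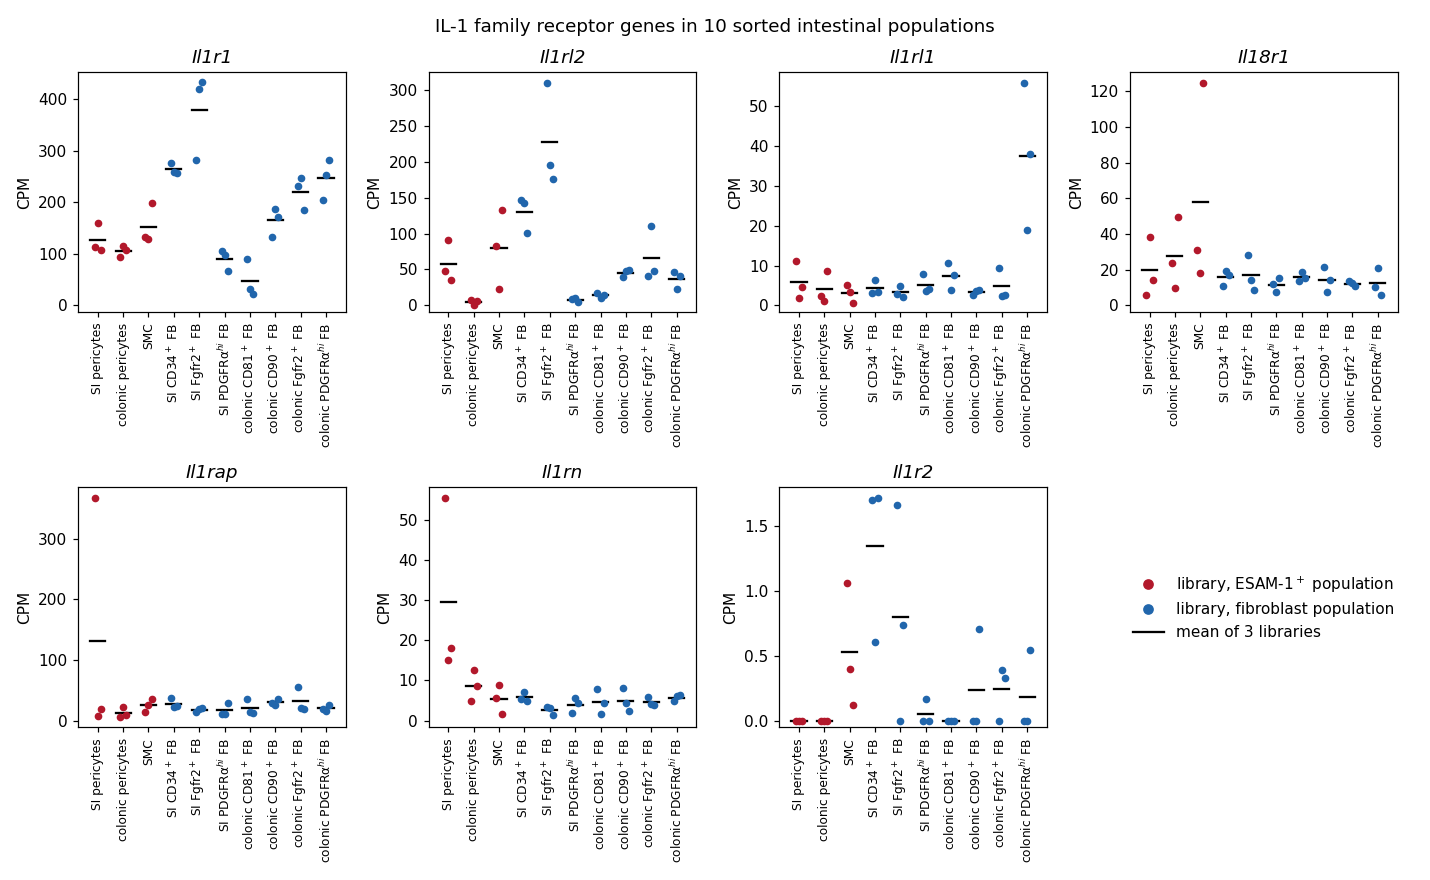
Level of each receptor gene (CPM, scaled by trimmed mean of M values; each panel has its own axis from 0) in the 10 sorted populations, with a point per library and a bar at the mean of 3. *Il1r1* and *Il1rl2* were highest in small intestinal Fgfr2+ FB (means 379 and 227 CPM), *Il1rl1* in colonic PDGFRα hi FB (37.6 CPM), and the *Il1rap* mean of small intestinal pericytes (131 CPM) rests on a single library at 367 CPM.

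All 7 genes had enough counts to be tested, although *Il1r2* passed the filter of 6 counts in 3 libraries with 107 counts in all. In the test for any difference between the 10 populations, 5 of the 7 were called, where 25.8% of all 17542 genes tested were called. These were *Il1r1*, *Il1rl1*, *Il1rl2*, *Il1rap* and *Il1rn*. DESeq2 also called *Il18r1* (adjusted p = 0.0213), and without the low-count filter *Il1rn* was not called (adjusted p = 0.0758). To be called, a gene needed an adjusted p (Benjamini-Hochberg, edgeR's quasi-likelihood test) under 0.05 together with a log2 fold change beyond 1.5 in either direction, here from the lowest to the highest fitted population. Without small intestinal pericyte replicate 1, *Il1rap* and *Il1rn* were no longer called, and their largest log2 differences went from 3.41 to 1.32 and from 3.45 to 2.55 (adjusted p = 0.563 and 0.305). *Il1rl1* was no longer called without colonic PDGFRα hi FB replicate 1 (adjusted p = 0.116), although its largest log2 difference stayed above 3, from 3.60 with all 30 libraries. Blocking by replicate number removed the *Il1rap* call (2.97, adjusted p = 0.249).

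*Il1r1*, the signalling receptor for IL-1, was measured in all 30 libraries, with 251 to 4571 counts, and its 4 highest means were those of FB. Small intestinal Fgfr2+ FB gave 282, 420.1 and 433 CPM (379 ± 83.8, mean ± SD, n = 3), and small intestinal CD34+ FB gave 276, 259 and 258 CPM (264 ± 9.91). Colonic PDGFRα hi FB gave 205, 253 and 282 CPM (247 ± 38.8), and colonic Fgfr2+ FB 232, 247 and 185 CPM (221 ± 32.2). The lowest library of small intestinal Fgfr2+ FB, at 282 CPM, lay above all 3 of small intestinal CD34+ FB. It was level with the highest of colonic PDGFRα hi FB. In TPM, explained below, the same library was at 89, below the 154, 212 and 166 TPM of small intestinal CD34+ FB.

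In the middle of the *Il1r1* order, colonic CD90+ FB gave 133, 188 and 172 CPM (165 ± 28.1) and SMC 133, 129 and 198 CPM (153 ± 38.8). Small intestinal pericytes gave 114, 159 and 107 CPM (127 ± 27.9), and colonic pericytes 93.2, 115 and 107 CPM (105 ± 11). At the low end, small intestinal PDGFRα hi FB gave 105, 98.1 and 67.5 CPM (90.1 ± 19.9) and colonic CD81+ FB gave 90.5, 32.2 and 21.3 CPM (48 ± 37.2). From small intestinal CD34+ FB downwards, each population overlapped the next lower one, so that the order of neighbours is not fixed by these libraries. The highest mean was 7.89 times the lowest, a ratio that depends on colonic CD81+ FB replicate 1, at 90.5 CPM. Leaving out each of the 30 libraries in turn gave a largest log2 difference of 2.63 to 3.77, beside 2.96 with all.

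*Il1rl2*, the IL-36 receptor chain, had a highest mean 52.7 times its lowest, the widest range of the 6 genes other than *Il1r2*, whose lowest means were 0. Small intestinal Fgfr2+ FB gave 309.9, 195 and 176 CPM (227 ± 72.5), and small intestinal CD34+ FB gave 147, 143 and 101 CPM (130.5 ± 25.6). SMC gave 82.6, 22.9 and 133 CPM (79.5 ± 55). The small intestinal Fgfr2+ FB libraries lay above those of every other population, and SMC overlapped small intestinal CD34+ FB and each of the 4 populations that follow.

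Those were colonic Fgfr2+ FB, with 40.3, 111 and 47.6 CPM (66.4 ± 39.1), and small intestinal pericytes, with 48.1, 91.5 and 34.7 CPM (58.1 ± 29.7). Colonic CD90+ FB followed with 39.8, 47.5 and 49.1 CPM (45.5 ± 4.98) and colonic PDGFRα hi FB with 46.7, 22.6 and 40.6 CPM (36.6 ± 12.5). Each of these overlapped its neighbour in the order. Lower and apart came colonic CD81+ FB, with 17.3, 10.8 and 14.4 CPM (14.2 ± 3.26), and then small intestinal PDGFRα hi FB, with 8.55, 10.5 and 4.31 CPM (7.77 ± 3.15), which overlapped colonic pericytes, with 6.97, 0.614 and 5.34 CPM (4.31 ± 3.3).

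*Il1rl1*, the gene of the IL-33 receptor ST2, was highest in colonic PDGFRα hi FB, the population in which the transcript of its ligand *Il33* averaged 0.556 CPM. The *Il1rl1* libraries there had 55.9, 18.9 and 37.9 CPM (37.6 ± 18.5, n = 3), or 456, 144 and 279 counts. In the other 9 populations the means lay between 3.02 CPM in SMC and 7.28 CPM in colonic CD81+ FB, and the highest of those 27 libraries was a small intestinal pericyte library at 11.1 CPM. The 3 colonic PDGFRα hi FB libraries thus lay above all others, and the other 9 populations overlapped one another in the order of their means.

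*Il1rap*, the shared accessory chain, was at similar low levels in most populations. Small intestinal pericytes gave 367, 8.03 and 18.5 CPM (131 ± 204), and the means of the other 9 populations ran from 12.6 CPM in colonic pericytes to 32.1 CPM in colonic Fgfr2+ FB. The high value came from replicate 1 alone, and every population overlapped the next in order.

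*Il1rn*, the antagonist, was highest in small intestinal pericytes, with 55.5, 15.2 and 18.2 CPM (29.6 ± 22.5). Colonic pericytes followed with 4.79, 12.5 and 8.71 CPM (8.67 ± 3.87), and the remaining 8 populations had means of 2.66 to 5.84 CPM. The 3 small intestinal pericyte libraries were all above those of the other 9 populations in CPM, and the latter overlapped their neighbours. In TPM replicate 2 of small intestinal pericytes, at 8.76, lay below the highest libraries of colonic pericytes (9.39), colonic CD90+ FB (9.4) and SMC (8.77).

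*Il18r1*, the IL-18 receptor chain, varied widely among libraries of the same population. SMC gave 31.1, 17.9 and 125 CPM (57.9 ± 58.2), colonic pericytes 24, 9.58 and 49.5 CPM (27.7 ± 20.2), and small intestinal pericytes 5.94, 38.4 and 14.3 CPM (19.6 ± 16.9). The 7 FB populations had means of 11.5 to 17 CPM, and each of the 10 populations overlapped the next. SMC replicate 3 had the highest *Il18r1* value in CPM, whereas in TPM, at 21.3, it lay below colonic pericyte replicate 3 (23.8). In SMC replicate 3 the list of 5 endothelial genes summed to 213 CPM against 47.8 and 43.2 CPM in replicates 1 and 2. That sum came mainly from *Pecam1*, with none of the 5 at 0, and its part in the *Il18r1* value was not tested.

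*Il1r2*, the decoy receptor, was near the limit of detection. It was above 0 in 13 of the 30 libraries, with at most 24 counts and 1.71 CPM, and it was at 0 in all libraries of colonic CD81+ FB and of pericytes of both tissues. The highest mean was that of small intestinal CD34+ FB, with 1.7, 0.608 and 1.71 CPM (1.34 ± 0.633). A library with 0 counts has an upper 95% limit of 3 counts, so that a lower *Il1r2* level was not detectable at this depth.

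Levels of different genes were compared as TPM, which divides by transcript length, rescaled in each library to the genes matched here. *Il1r1* had the highest mean TPM of the 7 genes in 8 of the 10 populations. In small intestinal Fgfr2+ FB the mean TPM was 183 for *Il1r1*, 113 for *Il1rl2* and 8.79 for *Il1rap*. Colonic PDGFRα hi FB had a mean TPM of 153 for *Il1r1*, 24.1 for *Il1rl1*, 20.7 for *Il1rl2* and 10.2 for *Il1rap*.

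The other 2 populations were SMC, where *Il1rl2* and *Il1r1* overlapped at mean TPM of 49.2 and 48.6, and small intestinal pericytes, where *Il1rap* had 207, 1.97 and 8.29 TPM and *Il1r1* 29.9, 35.1 and 49.7 TPM. There *Il1rap* was above *Il1r1* in replicate 1 alone. The ratio of the *Il1r1* level to the *Il1rap* level in TPM, which sets a binding chain against its partner, was 17.5, 18.7 and 24.1 in small intestinal Fgfr2+ FB and 1.13, 1.4 and 1.64 in colonic CD81+ FB. In the small intestinal pericyte libraries the ratio was 0.144, 17.9 and 6. All forms of *Il1rap* are counted here. In small intestinal pericyte replicate 1 and colonic CD81+ FB replicates 1 and 2 most of its counts were estimated not to be of the membrane form. These estimates and their limits are given below.

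Fgfr2+ FB and PDGFRα hi FB were sorted in both tissues, and the comparison, averaged over the tissues, asks which receptors separate these 2 subsets. *Il1rl2* was higher in Fgfr2+ FB. In the 6 Fgfr2+ FB libraries its level was 40.3 to 309.9 CPM, and in the 6 PDGFRα hi FB libraries 4.31 to 46.7 CPM, so that the ranges overlap between colonic Fgfr2+ FB and colonic PDGFRα hi FB but not within the small intestine. Its log2 fold change was 2.83 ± 0.46 (SE; adjusted p = 0.000143, edgeR), and it stayed called whichever of the 12 libraries was left out. It was the 1 of the 7 genes called, where 3.00% of all genes tested were called. Markers differed in both directions: of 6 pericyte genes 2 were higher and 2 lower in Fgfr2+ FB, of 6 smooth muscle genes 1 was higher and 3 lower, and of the endothelial genes and those of glia and interstitial cells of Cajal 1 each was lower. Their part in the *Il1rl2* value was not tested.

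Averaged over the tissues, *Il1r1* had a log2 fold change of 0.92 ± 0.26 (adjusted p = 0.0379, edgeR), which is below the fold threshold and came from the small intestine alone. There its mean was 379 CPM in Fgfr2+ FB and 90.1 CPM in PDGFRα hi FB, whereas in the colon it was 221 CPM in Fgfr2+ FB and 247 CPM in PDGFRα hi FB, with overlap. *Il1rl1* had a log2 fold change of −1.85 ± 0.63 (adjusted p = 0.117, edgeR). It was called by DESeq2, with −1.82 (adjusted p = 0.022). The median log2 fold change of the 7 genes was 0.34, beside −0.00 over all genes tested. In bulk RNA, more cells carrying a transcript and more of it per cell cannot be told apart, here or in the other comparisons.

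The tissue comparison of PDGFRα hi FB asks whether this subset carries the same receptors in small intestine and colon. For 3 genes every small intestinal library lay below every colonic one, where the libraries of 17.2% of all genes tested did not overlap in either direction and 0.963% were called by edgeR. *Il1r1* had 105, 98.1 and 67.5 CPM in the small intestine, and the colonic values were 205, 253 and 282 CPM. *Il1rl2* had 8.55, 10.5 and 4.31 CPM against 46.7, 22.6 and 40.6 CPM, and *Il1rl1* had 7.76, 3.63 and 4.08 CPM against 55.9, 18.9 and 37.9 CPM.

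None of the 3 passed the threshold of edgeR: the log2 fold change was −1.40 ± 0.37 for *Il1r1* (adjusted p = 0.0622), −2.18 ± 0.64 for *Il1rl2* (adjusted p = 0.123) and −2.83 ± 0.92 for *Il1rl1* (adjusted p = 0.219). With edgeR 0 of the 7 genes were called, 3 had an unadjusted p under 0.05, and 2 were called by DESeq2, namely *Il1rl1* (adjusted p = 0.0129) and *Il1rl2* (adjusted p = 0.0109). In a fit of the 2 populations alone, which differs in its dispersion estimates, edgeR called the same 2 genes, and with counts scaled from TPM it called *Il1r1*. Pericyte genes differed in the other direction: the list of 6 summed to 3114, 3575 and 3051 CPM in the small intestine and to 633, 597 and 656 CPM in the colon, with none at 0 and *Abcc9* the highest (means 1744 and 206 CPM). Of these, 2 were higher in the small intestine, *Abcc9* (3.13) and *Rgs5* (2.29), as was 1 of 6 smooth muscle genes. The list of glia and interstitial cells of Cajal had the direction of the 3 receptor genes, at 3.02, 9.6 and 5.44 CPM in the small intestine, with *Sox10* at 0, and 89.2, 83.5 and 84.8 CPM in the colon. Its called gene was *Ano1* (−6.37), which averaged 79.7 CPM in the colonic libraries and made up most of the list there. *Ano1* was higher still in pericytes, with means of 752 CPM (small intestine) and 711 CPM (colon). The paper describes interstitial cells of Cajal as c-kit+, and *Kit*, listed here with mast cell genes, had the opposite direction. Small intestinal PDGFRα hi FB held 6.97, 8.19 and 42.9 CPM of *Kit*, against a colonic mean of 0.719 CPM. The part of these markers in the receptor values was not tested.

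In Fgfr2+ FB the direction was the opposite for *Il1r1* and *Il1rl2*. Both were higher in all 3 small intestinal libraries than in all 3 colonic ones. *Il1rl1* overlapped, at 2.21 to 4.78 CPM in the small intestine and 2.35 to 9.43 CPM in the colon, with a log2 fold change of −0.52. *Il1r1* had 282, 420.1 and 433 CPM against 232, 247 and 185 CPM, and *Il1rl2* had 309.9, 195 and 176 CPM against 40.3, 111 and 47.6 CPM. In TPM *Il1r1* overlapped, with 89, 184 and 276 TPM in the small intestine and 122, 107 and 81.7 TPM in the colon. *Il1rn* did not overlap in CPM, with small intestinal values of 3.38, 3.12 and 1.47 CPM and colonic values of 5.79, 4.21 and 3.9 CPM, and its log2 fold change of −0.78 (adjusted p = 0.748, edgeR) was −0.50 without small intestinal Fgfr2+ FB replicate 3. For *Il1r1* the log2 fold change was 0.75 ± 0.36 (adjusted p = 0.394, edgeR) and for *Il1rl2* 1.76 ± 0.62 (adjusted p = 0.194, edgeR). None passed: 0 of the 7 genes were called by edgeR, 2 had an unadjusted p under 0.05, and 1, *Il1rl2*, was called by DESeq2 (adjusted p = 0.0467), where edgeR called 1.45% of all genes tested and the libraries of 16.1% did not overlap. In Fgfr2+ FB too the pericyte list was higher in the small intestine, at 2405, 2240.2 and 2343 CPM against 693, 827 and 995 CPM, with none of its 6 genes at 0. *Rgs5* was the highest of them in both tissues and the 1 called (1.96), beside 2 of 6 smooth muscle genes, and their part in the receptor values was not tested.

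The difference between these tissue differences was tested as an interaction. *Il1r1* had a log2 difference of 2.15 ± 0.52 (adjusted p = 0.0462, edgeR) and *Il1rl2* of 3.94 ± 0.89 (adjusted p = 0.028, edgeR). These were 2 of the 7 genes, where 0.661% of all genes tested were called, and DESeq2 called the same 2. Among the markers *Ano1* was called in the same direction (6.66), and *Abcc9* (−3.75), *Cd34* (−4.32) and *Pdgfra* (−1.63) in the other, and their part in the receptor values was not tested. For both receptor genes small intestinal Fgfr2+ FB had the highest and small intestinal PDGFRα hi FB the lowest mean of the 4 populations, with the colonic populations between.

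Both interaction calls lie close to the threshold. For *Il1r1* the call was kept without small intestinal Fgfr2+ FB replicate 1 and lost without each of the other 11 libraries (adjusted p 0.0485 to 0.166 over the 12 fits). The log2 difference was then 2.16, 2.24 and 2.05 without replicates 1, 2 and 3 of colonic Fgfr2+ FB, and 2.26, 2.14 and 2.03 without those of colonic PDGFRα hi FB. It was 2.26, 2.23 and 1.97 without the replicates of small intestinal PDGFRα hi FB, and 2.06 and 2.07 without replicates 2 and 3 of small intestinal Fgfr2+ FB. Blocking by replicate number gave 2.18 (adjusted p = 0.0526).

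For *Il1rl2* the interaction call was lost without 7 of the 12 libraries: small intestinal Fgfr2+ FB replicate 1 (3.62), colonic Fgfr2+ FB replicates 1 and 3 (3.67 and 3.76), colonic PDGFRα hi FB replicates 1 and 3 (3.72 and 3.85), and small intestinal PDGFRα hi FB replicates 1 and 3 (adjusted p = 0.0725 and 0.108). Over the 12 fits the log2 difference was 3.62 to 4.53 and the adjusted p 0.0237 to 0.109. When only complete protein-coding transcripts of the 7 genes were summed, the *Il1r1* and *Il1rl2* values were 2.12 and 4.28 (adjusted p = 0.056 and 0.101), and with counts scaled from TPM *Il1rl2* had 4.07 (adjusted p = 0.141).

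Colonic CD81+ FB were set against the mean of the other 3 colonic FB populations, which asks what marks them within the colon. *Il1r1* was lower in CD81+ FB. Its level was 90.5, 32.2 and 21.3 CPM in CD81+ FB and 133 to 282 CPM in the other 9 colonic FB libraries, with no overlap, and the log2 fold change was −2.13 ± 0.34 (adjusted p = 0.000157, edgeR). It was −2.94 without CD81+ FB replicate 1, −1.76 without CD81+ FB replicate 3, and the gene stayed called whichever of the 12 libraries was left out.

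*Il1rl2* did not overlap either, with 17.3, 10.8 and 14.4 CPM in CD81+ FB against 22.6 to 111 CPM, and had a log2 fold change of −1.77 ± 0.55 (adjusted p = 0.0694, edgeR). Thus 1 of the 7 genes was called, where 3.44% of all genes tested were called and the libraries of 4.97% did not overlap, and 2 were called by DESeq2. The 5 remaining genes overlapped between the groups. Of 6 pericyte genes *Rgs5* and *Cspg4* were lower in CD81+ FB, of 6 smooth muscle genes *Acta2* and *Actg2* were lower, and of 6 fibroblast genes *Dcn* was higher. The part of these markers in the receptor values was not tested.

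Small intestinal CD34+ FB were compared with the mean of the 2 CD34- fibroblast populations of that tissue, which asks whether CD34 marks a difference in receptors. *Il1r1* was even among CD34+ FB libraries, at 276, 259 and 258 CPM, and these lay between the high Fgfr2+ FB and the low PDGFRα hi FB. *Il1rl2* had 147, 143 and 101 CPM in CD34+ FB and 4.31 to 309.9 CPM in the CD34- libraries, with a log2 fold change of 1.63 ± 0.51 (adjusted p = 0.0844, edgeR). By edgeR 0 of the 7 genes were called, where 2.72% of all genes tested were called. Of the 7, 1 had an unadjusted p under 0.05, and 1, *Il1rl2*, was called by DESeq2. In CD34+ FB 5 of 6 fibroblast genes were higher, 4 of 6 smooth muscle genes lower, and of 6 pericyte genes 1 higher and 3 lower. Of the T cell, NK cell and ILC genes 1 was higher. The part of these markers in the *Il1rl2* value was not tested.

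Colonic CD90+ FB and colonic Fgfr2+ FB differ in their gates by CD90. *Il1r1* had 133, 188 and 172 CPM in CD90+ FB against 232, 247 and 185 CPM in Fgfr2+ FB, and the groups overlap at 188 and 185 CPM. Of the 7 genes 0 were called by edgeR, 0 had an unadjusted p under 0.05 and 0 were called by DESeq2, where 0% of all genes tested were called.

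In pericytes the comparison between tissues asks whether the cells around small intestinal and colonic vessels carry the same receptors. *Il1rl2* was higher in the small intestine, with 48.1, 91.5 and 34.7 CPM, against colonic values of 6.97, 0.614 and 5.34 CPM. The colonic libraries held 67, 5 and 73 counts of the gene, and no small intestinal library fell to their level. Its log2 fold change was 3.78 ± 0.68 (adjusted p = 0.00155, edgeR), and the gene stayed called whichever of the 6 libraries was left out. In a fit of the 6 pericyte libraries alone, where edgeR called 0 genes of the whole table, the value was 3.81 (adjusted p = 0.416).

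*Il1rap* was called as well, and its call rests on a single library. It had 367, 8.03 and 18.5 CPM in small intestinal pericytes against 6.14, 22.6 and 9 CPM in colonic pericytes, so that replicates 2 and 3 lie within the colonic range. The log2 fold change was 3.42 ± 0.91 (adjusted p = 0.0266, edgeR). Without small intestinal pericyte replicate 1 it was 0.06 (adjusted p = 1). The call was lost also without colonic pericyte replicate 1 (adjusted p = 0.0813) or 3 (3.21, adjusted p = 0.0747) and when blocked by replicate number (2.98, adjusted p = 0.0731).

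*Il1rn* had 55.5, 15.2 and 18.2 CPM in small intestinal pericytes against colonic values of 4.79, 12.5 and 8.71 CPM, without overlap in CPM but with overlap in TPM. Its log2 fold change was 1.81 ± 0.80 (adjusted p = 0.163, edgeR), and 0.93 without small intestinal pericyte replicate 1. In this comparison 2 of the 7 genes were called, and 1 without small intestinal pericyte replicate 1 or colonic pericyte replicate 1 or 3. Under the other settings of the processing the count ran from 0 to 3. Of all genes tested 5.72% were called, and the libraries of 12.1% did not overlap. The B cell and macrophage lists that set replicate 1 apart were given with the libraries, and their part in the *Il1rap* and *Il1rn* values was not tested.

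The pericytes of the 2 tissues differed in markers as well. The smooth muscle list summed to 10059, 11176 and 11630.1 CPM in colonic pericytes and to 4373, 2991 and 3234 CPM in those of the small intestine. *Myh11* was the highest of its genes in both (means 6903 and 1529.9 CPM), with none of the 6 at 0. Of these 6 genes 2 were lower in the small intestine, and the list median was −2.03. Macrophage, dendritic cell and neutrophil genes summed to 122, 166 and 35.2 CPM in colonic pericytes, with *Itgax*, *S100a8* and *S100a9* at 0, and to 219, 74.8 and 60.2 CPM in those of the small intestine. *Cd68*, the highest of them in both, averaged 44.3 CPM in the colon and 111 CPM in the small intestine and was not called, while *Lyz2* and *Csf3r*, 2 of the 4 that could be tested, were lower in the small intestine. The part of these markers in the *Il1rl2* value was not tested.

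SMC and pericytes of the small intestine share the ESAM-1 gate. *Il1rn* was higher in pericytes, with 55.5, 15.2 and 18.2 CPM against 5.54, 8.89 and 1.74 CPM, and the groups overlapped in TPM but not in CPM. The log2 fold change was 2.54 ± 0.82 (adjusted p = 0.0436, edgeR). That is 1 of the 7 genes called, where 10.1% of all genes tested were called, the libraries of 18.2% did not overlap, and DESeq2, with pericyte replicate 1 included, called *Il1rap* (2.63, adjusted p = 0.0108) beside *Il1rn*. Macrophage, dendritic cell and neutrophil genes summed to 219, 74.8 and 60.2 CPM in these pericytes and to 25.5, 16.6 and 37.3 CPM in SMC, with *Adgre1*, *Itgax*, *S100a8* and *S100a9* at 0 in both. Of them *Cd68* was higher in pericytes (4.28) and *Csf3r* lower (−3.22), and of the B cell genes *Cd79a* was higher (9.74). Their part in the *Il1rn* value was not tested.

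The *Il1rn* call was lost without pericyte replicate 1 (1.64), without SMC replicate 1 (2.57, adjusted p = 0.1), 2 (adjusted p = 0.0514) or 3 (2.06, adjusted p = 0.173), and when blocked by replicate number (2.56, adjusted p = 0.0513). Over the 6 fits that left out a library its adjusted p ran from 0.0295 to 0.25. *Il1rap*, with a log2 fold change of 2.50 ± 0.88 (adjusted p = 0.0633, edgeR), was called without pericyte replicate 2 (3.06) or 3 (3.02), and without pericyte replicate 1 its value was −0.90. *Il18r1*, at 5.94, 38.4 and 14.3 CPM in pericytes and 31.1, 17.9 and 125 CPM in SMC, overlapped and had a log2 fold change of −1.46 ± 0.76 (adjusted p = 0.223, edgeR), which was −0.30 without SMC replicate 3 and −2.41 without pericyte replicate 2.

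All FB against all ESAM-1+ populations, each population weighted equally, showed smaller differences. *Il1rn* was lower in FB, at 1.47 to 8.19 CPM in 21 libraries against 1.74 to 55.5 CPM in 9, and *Il18r1* was lower, at 5.57 to 28 CPM against 5.94 to 125 CPM, with overlap in both. The log2 fold change was −1.32 ± 0.36 for *Il1rn* (adjusted p = 0.0083, edgeR) and −1.17 ± 0.35 for *Il18r1* (adjusted p = 0.0142, edgeR), each below the fold threshold of 1.5, and *Il18r1* had −0.76 (adjusted p = 0.129) without SMC replicate 3. With edgeR 0 of the 7 genes were called, 4 had an unadjusted p under 0.05 and 0 were called by DESeq2, where 13.3% of all genes tested were called. *Il1r1* and *Il1rl2* were the other 2 of the 4, with log2 fold changes of 0.40 and 0.71.

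The estimated counts distinguish transcript forms, as far as short reads can. For *Il1rl1* the annotation has a membrane form of 567 codons, 2 transcripts of which were counted, and a short form of 337 codons. The short form counted, Il1rl1-203, lacks the membrane and intracellular parts and is known as soluble ST2, a decoy for IL-33. Another transcript of 337 codons, Il1rl1-205, had 0 counts. In colonic PDGFRα hi FB the short form took 201, 121 and 210 of the 456, 144 and 279 counts, which is 44%, 84.3% and 75.2%. The exact (Clopper-Pearson) 95% intervals, which cover counting error alone, were 39.5 to 48.8%, 77 to 89.6% and 69.8 to 80.2%. In the other 27 libraries the short form had 29 counts in all, in 4 libraries, 24 of them in small intestinal PDGFRα hi FB replicate 1.

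The high *Il1rl1* level of colonic PDGFRα hi FB was in large part that of the short form, at 24.6, 15.9 and 28.5 CPM (23 ± 6.45), with means of 0 to 1.05 CPM elsewhere. The membrane form had 31.3, 2.96 and 9.42 CPM (14.5 ± 14.8) there, and means of 3.02 to 7.27 CPM in the populations other than colonic PDGFRα hi FB. The short form separated the 3 colonic PDGFRα hi FB libraries from all others, while for the membrane form the libraries at 2.96 and 9.42 CPM lay within the range of the other populations. Of the 31-base words of Il1rl1-203, 1425 occur in no other transcript of the gene, so that reads of these words could be told from the spliced membrane form. No test was made of the forms.

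For *Il1rap* the short form, Il1rap-206 with 360 codons, ends before the membrane domain and is known as the soluble accessory protein. It makes up the outlying library: in small intestinal pericytes it took 1666, 1 and 45 of 1790, 66 and 153 counts, which is 93%, 1.72% and 29.4%. The exact 95% intervals were 91.8 to 94.2%, 0.0384 to 8.16% and 22.3 to 37.3%. The membrane forms had 25.5, 7.89 and 13.1 CPM in these libraries, against 341, 0.138 and 5.45 CPM for the short form, and outside small intestinal pericytes the short form took at most 25% of a library's counts.

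Another kind of *Il1rap* transcript, annotated as subject to nonsense-mediated decay, took 263, 140 and 0 counts in colonic CD81+ FB, 60.6% (95% interval 55.8 to 65.2%), 59.4% (53 to 65.9%) and 0% (0 to 2.38%) of the gene. It was at most 25.6% in any library of the other populations. The *Il1rap* level of colonic CD81+ FB replicates 1 and 2 is thus mostly not that of a form that codes for the whole receptor, which had 13.8, 5.16 and 12.5 CPM in the 3 libraries.

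**Figure D2:**
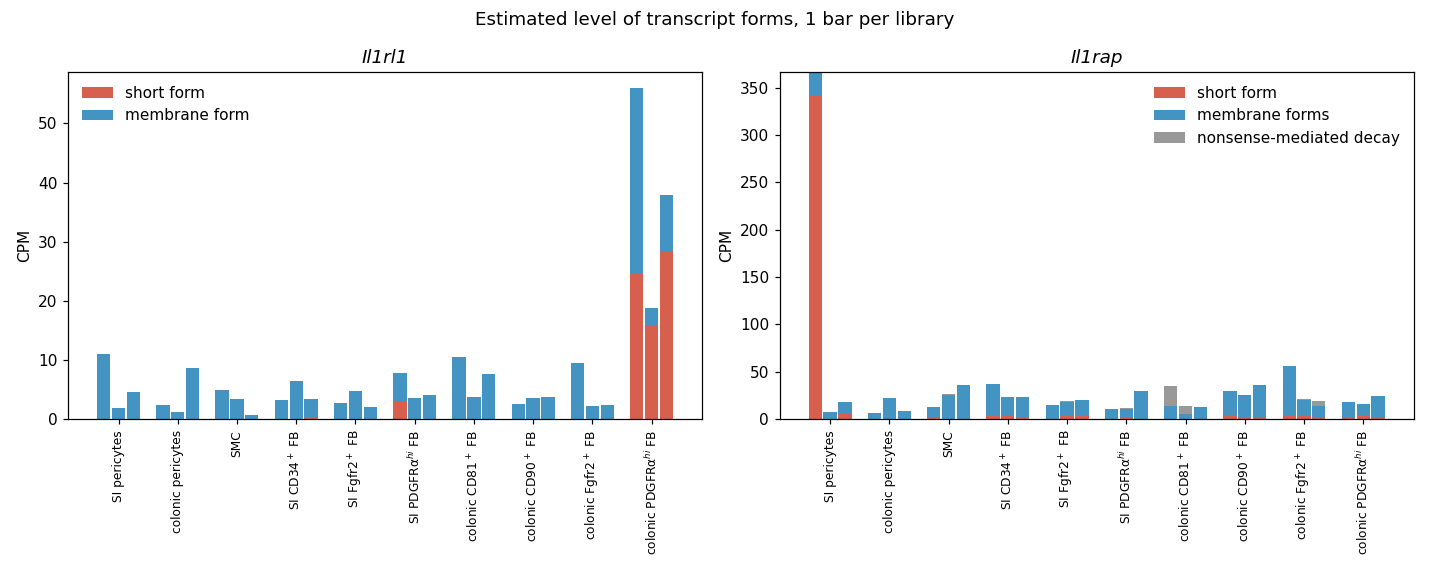
Estimated level (CPM, axis from 0) of the transcript forms of *Il1rl1* and *Il1rap*, stacked in a bar per library, with 3 libraries for each of the 10 populations. The short *Il1rl1* form was 15.9 to 28.5 CPM in the colonic PDGFRα hi FB libraries, and the short *Il1rap* form was 341 CPM in small intestinal pericyte replicate 1.

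The 2 short forms arise in the same way: the coding sequence runs past the end of an exon that the membrane form splices, and stops in the following intron. The sequences show this junction, taken from GENCODE M21 transcripts of GRCm38 on the plus strand, with 30 shared coding bases in lower case and the coding bases that follow in capitals. Capitals run to the stop codon in the short forms and over the next 60 bases in the membrane forms. The shared coding part is 985 bases in *Il1rl1*, ending at chromosome 1 position 40446675, and 1051 bases in *Il1rap*, ending at chromosome 16 position 26701236. The short forms add 29 and 32 coding bases of their own, where the membrane forms go on from positions 40450075 and 26710481. Reads of unspliced RNA from these introns were not told apart from reads of the short forms.
Il1rl1-203: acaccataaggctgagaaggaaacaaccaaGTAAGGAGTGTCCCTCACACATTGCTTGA
Il1rl1-202: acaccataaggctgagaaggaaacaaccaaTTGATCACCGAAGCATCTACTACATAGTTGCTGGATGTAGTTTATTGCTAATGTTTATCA
Il1rap-206: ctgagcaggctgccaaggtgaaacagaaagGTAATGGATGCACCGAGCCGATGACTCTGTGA
Il1rap-201: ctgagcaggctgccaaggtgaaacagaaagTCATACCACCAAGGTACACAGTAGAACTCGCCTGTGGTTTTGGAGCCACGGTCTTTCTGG

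The other genes were dominated by 1 form. *Il1r1* had 89.1% of its 54281 counts on the transcript from the downstream start and 8.41% on that from the upstream start, whose share was 33.8% (95% interval 31.2 to 36.5%), 20.7% (18.5 to 23%) and 2.67% (1.98 to 3.57%) in SMC and at most 18.8% in the other populations. For *Il1rl2*, 79.3% of the counts were on Il1rl2-204, which codes for the whole receptor, and 14.9% on a transcript that retains an intron. In colonic pericytes the retained intron took 33, 5 and 33 of the 67, 5 and 73 *Il1rl2* counts, and in small intestinal PDGFRα hi FB replicate 3 it took 86.4% (71.9 to 95.6%). In SMC replicate 3, whole-receptor transcripts were given 129 of 1147 *Il1rl2* counts (11.2%, 9.48 to 13.2%), which is 14.9 of its 133 CPM. The retained intron was given 57.4 CPM, and the rest went to Il1rl2-203, a transcript with an incomplete coding end. Of the 663 words of 31 bases in Il1rl2-203, 28 occur in no other transcript of the gene. This division is therefore uncertain beyond the interval. *Il1rn* had 97.7% of its counts on the secreted form of 178 codons, although in colonic Fgfr2+ FB replicate 2 that form had 0 of 43 counts (95% interval 0 to 8.22%). *Il18r1* had 95.3% of its counts on a form of 537 codons, and *Il1r2* had 79.1% of 107 counts on a transcript annotated for nonsense-mediated decay.

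Of the 7 genes, 5 lie in a row on the plus strand of chromosome 1. The order is *Il1r2* (chr1:40074079-40125231), *Il1r1* (chr1:40225080-40317257), *Il1rl2* (chr1:40324610-40367562), *Il1rl1* (chr1:40429570-40465415) and *Il18r1* (chr1:40465552-40500854), followed by *Il18rap*. *Il1r1* ends 7352 bases before *Il1rl2* starts, *Il1rl1* ends 136 bases before *Il18r1*, and 99848 and 62007 bases separate the other neighbours. *Il1rap* (chr16:26581704-26730117) and *Il1rn* (chr2:24336853-24351494) lie elsewhere.

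**Figure D3:**
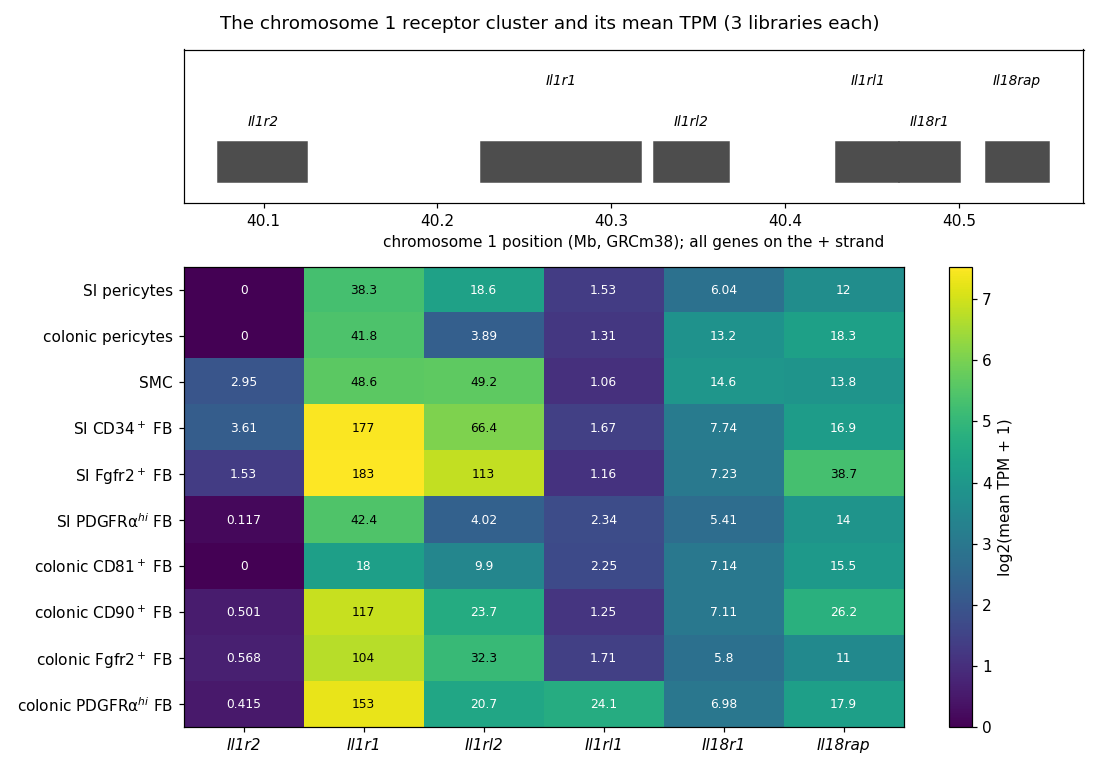
Positions of *Il1r2*, *Il1r1*, *Il1rl2*, *Il1rl1*, *Il18r1* and *Il18rap* on chromosome 1 (GRCm38, in Mb, to scale) above their mean TPM over 3 libraries in each population, printed in each cell and coloured by log2 of the mean plus 1. *Il1r1* and *Il1rl2* were both highest in small intestinal Fgfr2+ FB (183 and 113 TPM), and *Il1rl1* in colonic PDGFRα hi FB (24.1 TPM).

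Neighbours in the row shared their pattern in part. Over the 10 population means of log2 CPM, *Il1r1* and *Il1rl2* correlated at r = 0.73, and the sparse *Il1r2* with these 2 at 0.70 and 0.75. *Il1rl1* correlated with *Il1r1* at 0.03, with *Il1rl2* at −0.09 and with *Il18r1*, the nearest gene of the row, at −0.54. *Il1rl2* and *Il1rap*, which lie on different chromosomes, correlated at 0.66, and at 0.57 without small intestinal pericyte replicate 1. These are descriptions of 10 points that share the same libraries, given without the share of all gene pairs that reach such values.

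Promoters of *Il1r1*, *Il1rl2* and *Il1rl1* are shown because the levels of the first 2 genes correlated and those of *Il1rl1* did not. They are 300 bases each around a start, from RefSeq (GRCm38.p6, plus strand), and are those of the downstream *Il1r1* start (chr1:40266336-40266635), of *Il1rl2* (chr1:40324339-40324638) and of the downstream *Il1rl1* start (chr1:40439379-40439678). Within the last of these starts Il1rl1-202, with 5.15% of the *Il1rl1* counts, while Il1rl1-203 and Il1rl1-201, with 25.3% and 69.5%, start further downstream. Il1rl2-204, with 79.3% of the *Il1rl2* counts, also starts beyond its window, at position 40324690. Within that window start Il1rl2-201 and Il1rl2-202, with 3.07% and 14.9%. Capitals mark matches, on either strand, to the FOX, TATA or GC box motif. The GC box, spelled GGGCGG, occurs 3 times in the *Il1r1* promoter as printed, which runs past the start, and once each in those of *Il1rl2* and *Il1rl1*, and is found in 35.7% of all 32851 promoters and in 4 of the 13 promoters listed for the 7 genes. *Il1rl2* also has a TATA motif, spelled TATAAA, which is found in 13.6% of all promoters and in 2 of the 13. *Il1rl1* has a FOX motif, spelled TGTTTAC and here read on the other strand, which is found in 3.65% of all promoters and in 1 of the 13. Of the other motifs sought, that of AP-1, spelled TGANTCA, was in 1 of the 13 promoters, that of *Il1rn* (7.81% of all promoters). That of NF-κB, which is 3 G and then, after any 2 bases, 3 T and 2 C, was in 2 of the 13 (1.63% of all promoters), which are overlapping windows of *Il1rn* that hold the same site. A match is a description of letters and says nothing of binding.
Il1r1 promoter: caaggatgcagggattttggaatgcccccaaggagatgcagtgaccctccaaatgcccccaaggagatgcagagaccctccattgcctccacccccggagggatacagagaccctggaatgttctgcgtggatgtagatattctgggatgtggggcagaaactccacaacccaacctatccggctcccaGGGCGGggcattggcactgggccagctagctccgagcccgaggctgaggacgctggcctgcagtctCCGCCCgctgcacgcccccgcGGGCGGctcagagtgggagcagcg
Il1rl2 promoter: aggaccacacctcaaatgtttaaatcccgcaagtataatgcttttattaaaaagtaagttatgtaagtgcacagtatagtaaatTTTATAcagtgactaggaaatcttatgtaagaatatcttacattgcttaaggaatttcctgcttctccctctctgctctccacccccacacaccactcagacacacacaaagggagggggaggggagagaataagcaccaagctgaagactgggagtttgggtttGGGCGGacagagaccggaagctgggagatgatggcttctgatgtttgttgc
Il1rl1 promoter: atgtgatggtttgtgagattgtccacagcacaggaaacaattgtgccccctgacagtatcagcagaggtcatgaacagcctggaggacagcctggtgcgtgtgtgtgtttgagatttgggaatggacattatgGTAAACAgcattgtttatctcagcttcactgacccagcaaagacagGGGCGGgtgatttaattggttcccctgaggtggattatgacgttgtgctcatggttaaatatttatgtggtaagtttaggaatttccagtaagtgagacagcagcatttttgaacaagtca

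For each of the 7, the 5 genes most like it were sought by Pearson correlation of mean log2 CPM over the 10 populations, among 14306 genes. *Il1r1* was most like *Gm29609* (r = 0.946), *Tmem176b* (0.916), *Cdk6* (0.9), *Tmem176a* (0.893) and *Ercc8* (0.887), all highest in small intestinal Fgfr2+ FB. *Il1rl2* was most like *Icosl* (0.925), *Zfyve19* (0.909), *Chst15* (0.905), *Spidr* (0.889) and *Cntd1* (0.886). *Il1rl1* was most like *Vmn2r-ps89* (0.941), *Trpa1* (0.929), *Cd300e* (0.927), *Slco4a1* and *Cd300lb* (0.923 each), all highest in colonic PDGFRα hi FB. Of their 31-base words, *Gm29609* shares 83.3%, *Vmn2r-ps89* 87.3% and *Cntd1* 66.6% with other genes, so that these levels are uncertain.

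The patterns that rest on pericytes or SMC had other neighbours. *Il1rap* was most like *Shc2* (0.964), *Gstm7* (0.94), *Impdh1* (0.931), *Rabggta* (0.905) and *Vps9d1* (0.894), and *Il1rn* was most like *Col4a2* (0.971), *Rapgef5* (0.955), *Gm26943* (0.949), *Zfp703* (0.946) and *Gm16072* (0.939), all highest in small intestinal pericytes. Without small intestinal pericyte replicate 1 the *Il1rap* values were 0.851, 0.525, 0.4, 0.81 and 0.368 in the same order, and those of *Il1rn* 0.973, 0.908, 0.925, 0.94 and 0.824. *Il18r1* was most like *Chn2* (0.963), *Cenpi* (0.949), *Ttc28* (0.945), *Nmur2* (0.942) and *Actc1* (0.937). For the sparse *Il1r2* these were *Nudt12* (0.907), *Gm8979* (0.906), *Rap1gap* (0.903), *Eya1* (0.901) and *Man2a2* (0.898). Of these, *Gm8979* shares 91.7% and *Gm16072* 30.4% of their 31-base words with other genes.

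Among the ligands, *Il33* had a level of its own kind. It averaged 409 CPM in SMC, 216 CPM in colonic CD81+ FB, 188 CPM in small intestinal CD34+ FB, and 95.7 and 76.7 CPM in Fgfr2+ FB of the small intestine and colon. In colonic PDGFRα hi FB, where its receptor transcript was highest, it was nearly absent, with 0.612, 0.919 and 0.136 CPM. The other ligand transcripts were sparse, with *Il1a* at 2.88, 4.15 and 25.7 CPM in SMC and at most 1.23 CPM on average elsewhere, *Il1b* averaging at most 4.19 CPM, in small intestinal CD34+ FB, and *Il18* at most 2.81 CPM, in small intestinal PDGFRα hi FB. Of the IL-36 genes, *Il1f9*, which encodes IL-36γ, averaged 2.06 to 12.3 CPM, while *Il1f6*, *Il1f8* and the antagonist gene *Il1f5* were at 0, as was *Il1f10*.

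Of the 9 ligand genes 5 could be tested. For this list and those that follow, the share of all genes called in each comparison is the one given with that comparison above. In the comparison of Fgfr2+ FB with PDGFRα hi FB, 1 was higher, *Il33* by a log2 fold change of 4.79 (adjusted p = 2.08e-07, edgeR), against a median of 0.35 for the list and −0.00 for all genes. In PDGFRα hi FB, *Il33* was higher in the small intestine by 4.87 (adjusted p = 0.000299), the reverse of *Il1rl1*, at 18.5, 24.1 and 5.22 CPM against the colonic values above. It was also higher in colonic CD81+ FB than in other colonic FB by 4.29 and in small intestinal CD34+ FB than in CD34- FB by 2.27. In pericytes of the small intestine it was lower than in SMC, by a log2 fold change of −8.25, and its tissue difference was lower in Fgfr2+ FB than in PDGFRα hi FB, by −4.58 (adjusted p = 0.0155, edgeR). In FB against ESAM-1+ cells 2 ligand genes were higher, *Il33* by 2.71 and *Il18*, which was at 0 in all 9 ESAM-1+ libraries. Of the 5 tested, 0 were called by edgeR between tissues in pericytes, between tissues in Fgfr2+ FB, or between colonic CD90+ FB and Fgfr2+ FB.

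The list of other receptors and inhibitors had 5 genes, all tested, and 0 were called by edgeR in any of the 10 comparisons between populations. *Il18rap*, the accessory chain for IL-18, averaged 14.2 CPM in colonic Fgfr2+ FB to 49.1 CPM in small intestinal Fgfr2+ FB, and *Il18bp*, which encodes the binding protein that neutralizes IL-18, 9.22 CPM in colonic pericytes to 46.5 CPM in small intestinal pericytes. *Sigirr*, an inhibitory receptor, averaged at most 0.9 CPM. Of 5 ligand processing genes 4 were tested, and *Casp1*, the protease that matures IL-1β, was higher in FB than in ESAM-1+ cells by 3.74 (adjusted p = 0.00203, edgeR) and lower in small intestinal pericytes, where it was at 0 in all 3 libraries, than in SMC, with 2.45, 21.6 and 0.232 CPM. In the other 8 comparisons 0 of these genes were called by edgeR.

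The 21 receptor signalling genes were all tested. In FB against ESAM-1+ cells 1 was lower, where 13.3% of all genes tested were called. Small intestinal pericytes had 2 higher and 1 lower than SMC (10.1% of all genes), and 2 lower than colonic pericytes (5.72%). In Fgfr2+ FB between tissues 1 was lower (1.45%), and in the interaction 1 was lower (0.661%). *Peli2*, a ubiquitin ligase that binds IRAK proteins, was lower in FB than in ESAM-1+ cells by a log2 fold change of −2.14 (adjusted p = 1.43e-09, edgeR), averaging 257 and 266 CPM in pericytes and 32.7 to 78.7 CPM in FB, and it was the only one of the 21 called there. Small intestinal pericytes had more *Irak3* (3.66) and *Irak4* (2.34) than SMC, and *Irak3* is known as a brake on this pathway. *Peli3*, which averaged at most 7.02 CPM, was lower in small intestinal pericytes, where it was at 0, than in SMC or colonic pericytes, lower in small intestinal than in colonic Fgfr2+ FB, and was called in the interaction. *Ikbkg* was lower in small intestinal than in colonic pericytes by −2.15. Between Fgfr2+ FB and PDGFRα hi FB, 0 of the 21 were called by edgeR, with a list median of 0.11, as in PDGFRα hi FB between tissues (0.22), for CD34+ FB (0.01), for CD81+ FB (0.04) and between colonic CD90+ FB and Fgfr2+ FB (0.05). *Myd88* averaged 4.48 CPM in SMC to 29.9 CPM in colonic pericytes.

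Of 19 genes known to respond to IL-1 in fibroblasts, 18 were tested. In FB against ESAM-1+ cells the list median log2 fold change was 0.48, beside 0.04 for all genes. There 13.3% of all genes tested were called, and of the 18 responder genes 5 were higher and 0 lower. They were *Ptgs2*, *Mmp3*, *Ccl7*, *Ptges* and *Icam1*, with log2 fold changes of 7.30, 5.55, 4.24, 2.29 and 2.08. *Ptgs2*, which encodes the prostaglandin synthase COX-2, had 198, 203 and 216 CPM in colonic PDGFRα hi FB, above all other populations, whose means were at most 64.1 CPM. In PDGFRα hi FB, *Ptgs2* and *Ptges* were both lower in the small intestine, by a log2 fold change of −3.02 each (adjusted p = 0.0458 and 0.0423, edgeR). These were the 2 of 18 called, where 0.963% of all genes tested were called.

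In small intestinal pericytes against SMC, where 10.1% of all genes tested were called, 5 responder genes were higher and 2 lower. The higher ones were *Cxcl1* (5.75), *Nfkbiz* (5.28), *Ccl2* (4.28), *Icam1* (3.70) and *Tnfaip3* (3.47), the lower ones *Ptgs2* and *Cxcl5*. The list median was 1.37 beside −0.00 for all genes. Between Fgfr2+ FB and PDGFRα hi FB 1 was higher, *Tnfaip3* by 1.78, with a list median of 1.04. In the small intestine, CD34+ FB had more *Il6* (7.93) and *Nfkbiz* (3.25) than CD34- FB. Between tissues, pericytes of the small intestine had more *Icam1* (2.94) and less *Cxcl5* (−2.97), and small intestinal Fgfr2+ FB had more *Cxcl5* (3.22), less *Nfkbiz* (−3.91) and less *Il6*, which was at 0 there. In the interaction, for colonic CD81+ FB and between colonic CD90+ FB and Fgfr2+ FB, 0 of the 18 were called by edgeR. These lists describe the surroundings of the receptors, and no relation to receptor level was tested.

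Marker genes of other cells were low in most libraries. The 4 pan-immune genes summed to 2.57 to 62.6 CPM, the highest in replicate 2 of small intestinal Fgfr2+ FB against 7.39 and 15.4 CPM in its other libraries, mostly from *Laptm5*, while *Coro1a* and *Cd52* were at 0 there. Mast cells and innate lymphoid cells are known to carry ST2, and their part in the *Il1rl1* level was not tested. Of 5 mast cell genes, *Kit* alone was above 0 in small intestinal PDGFRα hi FB, with 6.97, 8.19 and 42.9 CPM. *Mcpt4*, *Tpsb2* and *Fcer1a* were at 0 in all 3 colonic PDGFRα hi FB libraries and the list summed to 0.122, 0.131 and 2.45 CPM, and of 7 T cell, NK cell and ILC genes *Cd3e*, *Cd3g* and *Ncr1* were at 0 there, the sum of 280.4, 311 and 305 CPM being mostly *Rora*, at 269 CPM, a gene that averaged 152 to 461 CPM in the 10 populations.

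The 5 epithelial genes summed to 0, 31.7 and 0.0732 CPM in colonic pericytes, with *Epcam* at 0, and to 0.205, 27.8 and 0.606 CPM in those of the small intestine, with *Epcam* and *Krt8* at 0, mostly from *Vil1* in the latter. Over all libraries epithelial genes summed to 0 to 31.7 CPM and mesothelial genes to 0.263 to 15.5 CPM, while the list of glia and interstitial cells of Cajal reached 1072 CPM through *Ano1* in pericytes, which averaged 752 and 711 CPM in those of the small intestine and colon. Libraries were not always closest to their own population. Across genes 12 of the 30 libraries correlated better with another population on average: all 3 of small intestinal Fgfr2+ FB (0.837 to 0.848 with their own and 0.848 to 0.875 with small intestinal CD34+ FB), all 3 of colonic Fgfr2+ FB and of colonic CD81+ FB, 2 of small intestinal pericytes and 1 of SMC. All 6 fibroblast genes were higher and all 6 pericyte and 6 smooth muscle genes lower in FB than in ESAM-1+ cells, and all 6 pericyte genes were higher in small intestinal pericytes than in SMC.

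Few other genes of the annotation share sequence with the 7. *Il1r1* and *Il1r2* share none of their 31-base words with another gene, and *Il1rl2*, *Il1rn*, *Il18r1* and *Il1rl1* share 0.116%, 0.379%, 1.16% and 1.61%. *Il1rap* shares 4.33%, all of it with the antisense gene *Gm20319*, which overlaps its end, and *Il1r2* overlaps the antisense gene *Gm16894*. On the same strand, *Il1rl2* overlaps the processed pseudogene *Gm17970*, which reached 30.6 CPM, *Il1r2* overlaps *Gm37347*, and *Il1r1* overlaps *Gm38070*. The strand of the counts is not stated, so that reads of the words shared with *Gm20319* could not be told from those of *Il1rap*.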

How the data were processed

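The authors trimmed reads with Trim Galore 0.4.0, checked them with FastQC 0.11.2 and quantified transcripts with kallisto 0.42.5, as the processing notes state. The deposited files give an estimated count and a TPM for each of 98492 transcripts per library. The authors' estimated count is not normalized, and intervals on it cover counting error alone, since reads carry no molecular identifiers. The deposited TPM was rescaled here to sum over matched genes alone. These genes held between 43.88% (small intestinal CD34+ FB replicate 2) and 88.19% (SMC replicate 3) of a library's deposited TPM. Comparisons of TPM between libraries, including overlaps, therefore depend on this rescaling.

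Of the transcripts, 97116 were matched by identifier to GENCODE M21 (GRCm38), and their estimated counts were summed to 32316 gene symbols and rounded. A gene was tested if 3 or more of the 30 libraries held 6 or more of its counts, 17542 in all, with edgeR 4.0.16 (R 4.3.3), TMM factors and quasi-likelihood tests, in 1 model with the 10 populations as groups and no block. Benjamini-Hochberg adjustment ran over all genes tested, with calls at an adjusted p under 0.05 and a log2 fold change beyond 1.5 in either direction. The procedure was also run on simulated counts with the same dispersion for every gene and no outlying library. That run therefore does not test calls that rest on a single library.

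The 7 genes and the lists of ligands, receptors, signalling and responder genes and markers were chosen with earlier results of these data known. The genes named are the 7, the genes of these lists and, for each of the 7, the 5 genes with the highest correlation of mean log2 CPM (prior count 2) among genes of at least 5 CPM in a population. Symbols of IL-36 genes were matched through RefSeq synonyms. Alternatives were DESeq2 1.42.0, other normalizations, filters and fold thresholds, counts scaled from TPM, a replicate block, fits of the compared populations alone, and leaving out each library.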

Additional observations from a re-analysis of the deposited data

Results flagged for a closer look

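In 2 genes the difference between small intestine and colon was not the same in Fgfr2+ FB as in PDGFRα hi FB, by a test of the interaction in edgeR. For *Il1r1* the tissue difference in Fgfr2+ FB exceeded that in PDGFRα hi FB by 2.15 on the log2 scale (SE 0.52, adjusted p = 0.0462), which no longer passed the threshold without each of 11 of the 12 libraries, or with the replicate number as a block (2.18, adjusted p = 0.0526). For *Il1rl2* it did so by 3.94 (SE 0.89, adjusted p = 0.028), which no longer passed without each of 7 of the 12. The gates of both subsets differ between the tissues, and gate and tissue cannot be told apart.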

How the results depend on the processing

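Counts of the 7 genes called were recomputed under each alternative, and no called fold change of these 7 genes changed its direction. Of 136 refits of the 7 called fold changes 96 stayed past the threshold and 40 did not. The cause of the differences below was not tested.

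With DESeq2, 6 genes were called for any difference, where it called 6192 of all 17542 genes tested and edgeR called 4520. DESeq2 gave 2 between small intestinal pericytes and SMC, 2 between Fgfr2+ FB and PDGFRα hi FB, and 2 between tissues in PDGFRα hi FB. It also gave 1 between tissues in Fgfr2+ FB, 1 for CD34+ against CD34- FB, and 2 for colonic CD81+ FB. Upper-quartile factors gave 0 between pericytes and SMC, 1 for CD34+ FB and 2 for CD81+ FB, and moved the median log2 fold change of all genes by −0.11 in the last. Without the low-count filter there were 4 for any difference, 0 between pericytes and SMC, and 2 for CD81+ FB. Counts scaled from TPM gave 2 for Fgfr2+ FB against PDGFRα hi FB, 1 between tissues in PDGFRα hi FB and 1 for the interaction. A log2 fold threshold of 1 gave 2 for FB against ESAM-1+ cells, and no fold threshold gave 2 there and 2 for Fgfr2+ FB against PDGFRα hi FB. In fits of the populations compared alone there were 0 between pericytes and SMC, 0 between pericytes of the 2 tissues, 2 for Fgfr2+ FB against PDGFRα hi FB, 2 between tissues in PDGFRα hi FB, 1 for CD34+ FB and 2 for CD81+ FB.

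With the replicate number as a block, 4 genes were called for any difference, 0 between pericytes and SMC, 1 between pericytes of the 2 tissues and 1 for the interaction. The paper describes the subsets of both tissues as taken from the same animals, without saying which libraries share one. Residuals of the 135 pairs with the same number correlated at 0.00748 on average and those with different numbers at −0.00338. Of the 30 libraries 23 correlated best with their own number, which is more than an even spread over the 3 replicate numbers would give. The main fits have no block, and whether libraries of the same number share an animal was not tested.

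Without each library in turn the count was 3 to 5 for any difference, 0 to 2 between pericytes and SMC, 1 to 2 between pericytes of the 2 tissues and 0 to 1 for the interaction. It was 1 to 1 for Fgfr2+ FB against PDGFRα hi FB and for CD81+ FB, and 0 to 0 in the other 5 comparisons. A lone pair of libraries was then assumed to vary like the other populations.

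Other alternatives were chosen after seeing the data. Leaving out small intestinal pericyte replicate 1 and small intestinal Fgfr2+ FB replicate 3 together gave 3 for any difference, 0 between pericytes and SMC, 1 between pericytes of the 2 tissues and 1 for the interaction. Summing only complete protein-coding transcripts of the 7 genes gave 0 for the interaction.

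Depth and 3 libraries a population limit these results: *Il1r2* had 107 counts in all, and DESeq2 gave it no adjusted p in 4 comparisons.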
